A study of Mus musculus with 18 samples.

Results

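The unfolded protein response and secretory genes described here are 32 genes of the endoplasmic reticulum (ER), taken by symbol from a table of 35667 mouse genes. They comprise 10 chaperones and co-chaperones, 5 disulfide folding enzymes, 5 genes of ER-associated degradation, 6 stress sensors and transcription factors, 2 targets of the factors ATF4 and CHOP, and 4 genes of translocation and export. Their RNA was measured in 18 bulk libraries, 3 in each of 6 groups. Hepatic stellate cells (HSC), the retinoid-storing pericytes of the liver sinusoid, were taken from healthy wild-type mice. They were studied after 7 days in Matrigel together with intrahepatic cholangiocyte organoids (ICO), after 7 days alone in Matrigel, after 7 days alone on plastic, and at day 0, freshly isolated. ICO, which grow from bile duct epithelium and here carried a dTomato tag, were studied after 7 days in Matrigel with HSC and after 7 days in Matrigel alone. The culture medium joined DMEM containing fetal bovine serum with Advanced DMEM/F12 and held EGF, HGF, RSPO3, nicotinamide and other supplements, and cells of the Matrigel cultures were sorted at day 7. Whether the 3 libraries of a group stem from different animals or cultures is not said in the labels, and the p-values therefore reflect the scatter among these libraries alone, part or all of which may be technical.

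Proteins that leave the cell are fed into the ER through the Sec61 channel, folded there by chaperones of the BiP and GRP94 families and by lectin chaperones, given disulfide bonds by the protein disulfide isomerases, and packed into COPII vesicles. When unfolded protein builds up, 3 membrane sensors start the unfolded protein response. IRE1 splices the Xbp1 message, ATF6 is cleaved to a transcription factor, and PERK slows translation while ATF4 is made, and ATF4 in turn drives genes of amino acid supply and, with CHOP, genes tied to cell death. ATF4 also answers to amino acid shortage and to other stresses that do not start in the ER. In the liver, activated HSC are a main source of fibrillar collagen, a large cargo whose procollagen chains need prolyl hydroxylation in the ER and a dedicated export route.

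Total counts lay between 6907479 in replicate 1 of co-cultured HSC and 22158674 in replicate 2 on plastic. Levels are CPM, counts scaled to a common library size with TMM factors, and not corrected for gene length. Stellate markers summed to at least 7180 CPM in every HSC library and to at most 95 CPM in any ICO library, and cholangiocyte markers to between 24200 and 30400 CPM in ICO. Cholangiocyte RNA was also present in the HSC libraries from Matrigel, including those labelled as HSC alone. Its share, estimated as the median of 12 cholangiocyte markers relative to ICO of the same culture, was 28.6%, 14.9% and 42% in co-cultured HSC, 32.5%, 13% and 3.84% in HSC alone in Matrigel, at most 0.111% on plastic and at most 0.281% at day 0. The day 0 libraries held hepatocyte markers at 21600, 21200 and 22300 CPM in sum and endothelial markers at 2350, 2370 and 2360 CPM, against at most 368 and 134 CPM in any HSC library of day 7. Macrophage markers summed to 271, 308 and 414 CPM in co-cultured HSC, to 2690, 2710 and 3480 CPM with HSC alone in the gel, to 182, 139 and 572 CPM on plastic and to 931, 969 and 982 CPM at day 0. In ICO the same sum was 501 to 637 CPM, of which Cd14 made up 476 to 608 CPM. Cd14 had 142, 103 and 209 CPM in co-cultured HSC, so this sum is not macrophage RNA alone. In such bulk samples, fewer cells of a type and less RNA per cell cannot be told apart.

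The promoters of these genes are shown because the unfolded protein response reaches many of them through short, known sequence elements. RefSeq promoter windows on build GRCm38.p6, from 250 bases before to 50 bases after the start site, were found for 28 of the 32 genes; Manf, Creb3l1, Hyou1 and Atf6 were not matched. Exact copies of the ER stress response element (ERSE: CCAAT, any 9 bases, then CCACG), which ATF6 binds together with the factor NF-Y, were sought on both strands. It occurred in 9 of the 28 windows (32.1%), against 39 of all 32851 promoter windows (0.119%). The copies read as follows on the strand that carries them, with the fixed letters in capitals.
Hspa5: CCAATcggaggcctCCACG
Hsp90b1, upstream copy: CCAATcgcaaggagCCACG
Hsp90b1, downstream copy: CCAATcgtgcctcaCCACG
Calr: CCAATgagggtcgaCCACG
Canx: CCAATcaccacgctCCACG
Dnajc3: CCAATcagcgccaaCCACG
Pdia6: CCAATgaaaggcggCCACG
Creld2: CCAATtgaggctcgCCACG
Derl3: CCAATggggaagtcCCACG
Syvn1: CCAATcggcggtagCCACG
The 9 genes are thus 5 chaperones or co-chaperones, 2 folding enzymes and 2 genes of ER-associated degradation, and none is a sensor, an ATF4 target or an export gene.

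The shorter element ERSE-II (ATTGG, any 1 base, then CCACG; both strands, like all elements) occurred in 2 windows (7.14%, against 0.0365% of all windows). The copy of Herpud1 begins 52 bases before its start site and that of Dnajb11 begins 8 bases after it.
Herpud1: ATTGGgCCACG
Dnajb11: ATTGGcCCACG
The XBP1-binding element (UPRE, TGACGTGG) was found in the windows of the COPII genes Sec24d and Sec23a only (7.14%, against 0.676% of all windows). The ATF4 element (CARE, TGATGNAA) was found in those of Chac1, Trib3 and Herpud1 (10.7%, against 3.97% of all windows). No 2 elements overlapped in a gene. For 4 genes the 220 bases before the start site are printed on the gene's own strand, with the matched letters in capitals; a copy on the opposite strand appears as its reverse complement. They are Hspa5 (chr2:34771870-34772089, plus strand), which encodes the chaperone BiP, Hsp90b1 (chr10:86705445-86705664, minus strand), which encodes GRP94, Herpud1 (chr8:94386209-94386428, plus strand), the gene that moved against the others in co-culture, and Chac1 (chr2:119351022-119351241, plus strand), an ATF4 target.
Hspa5: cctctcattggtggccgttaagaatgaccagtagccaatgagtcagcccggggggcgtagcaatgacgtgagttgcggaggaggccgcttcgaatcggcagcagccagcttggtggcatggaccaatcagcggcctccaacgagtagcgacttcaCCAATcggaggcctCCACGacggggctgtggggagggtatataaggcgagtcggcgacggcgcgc
Hsp90b1: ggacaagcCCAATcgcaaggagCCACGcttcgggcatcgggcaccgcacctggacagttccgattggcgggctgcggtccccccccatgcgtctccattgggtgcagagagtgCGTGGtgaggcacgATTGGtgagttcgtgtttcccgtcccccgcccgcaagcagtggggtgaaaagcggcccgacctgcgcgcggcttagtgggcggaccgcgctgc
Herpud1: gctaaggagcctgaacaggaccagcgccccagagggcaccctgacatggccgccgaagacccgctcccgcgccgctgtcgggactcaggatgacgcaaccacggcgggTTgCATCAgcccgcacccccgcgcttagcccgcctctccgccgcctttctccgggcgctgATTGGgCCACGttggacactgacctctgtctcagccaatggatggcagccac
Chac1: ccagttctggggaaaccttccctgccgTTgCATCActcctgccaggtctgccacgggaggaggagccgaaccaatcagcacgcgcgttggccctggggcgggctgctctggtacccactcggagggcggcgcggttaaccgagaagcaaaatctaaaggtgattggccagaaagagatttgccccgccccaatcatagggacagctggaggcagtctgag
A match is a description of the letters, not a proven site, and these windows say nothing about elements farther away.

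**Figure D1:**
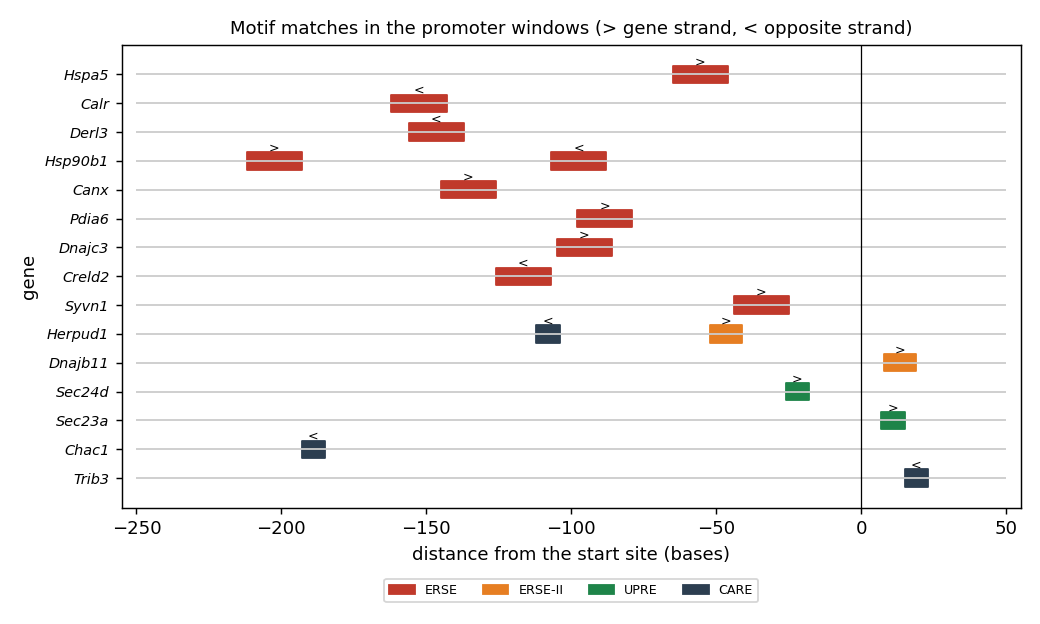
Positions of exact element copies in the promoter windows of the 15 genes that hold one, in bases from the RefSeq start site; colour gives the element. ERSE copies begin between 212 and 44 bases before the start site, and the Herpud1 window holds both an ERSE-II and an ATF4 element.

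Levels of the genes differed between the groups of HSC. Summed over all 32 genes, the level was 11400, 11700 and 10700 CPM in co-cultured HSC, 7220, 6240 and 7370 CPM in HSC alone in Matrigel, 11200, 10300 and 11500 CPM on plastic and 15700, 15800 and 15900 CPM at day 0. It was 9340, 9320 and 9590 CPM in co-cultured ICO and 8540, 8810 and 8380 CPM in ICO alone. The libraries of HSC alone in Matrigel were thus below all others and those of day 0 above all others. As a share of the unscaled counts the day 0 libraries no longer stood apart: the 32 genes took 1.29%, 1.21% and 1.13% in co-cultured HSC, 0.842%, 0.737% and 0.824% in HSC alone in Matrigel, 1.1%, 0.969% and 1.12% on plastic and 1.19%, 1.21% and 1.23% at day 0. The TMM factors of day 0 libraries (0.757 to 0.774) lay below those of plastic (0.94 to 0.982) and of HSC in Matrigel (1.03 to 1.18). With library totals alone, the median log2 fold change of all genes moved by 0.261 for plastic against day 0, 0.586 for HSC alone in Matrigel against day 0, 0.315 for HSC alone in Matrigel against plastic, -0.143 for co-cultured HSC against HSC alone in Matrigel and 0.158 for co-cultured HSC against plastic. Changes are therefore given beside the median of all genes, and the calls under total-count scaling are given beside the main ones for the HSC comparisons.

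**Figure D2:**
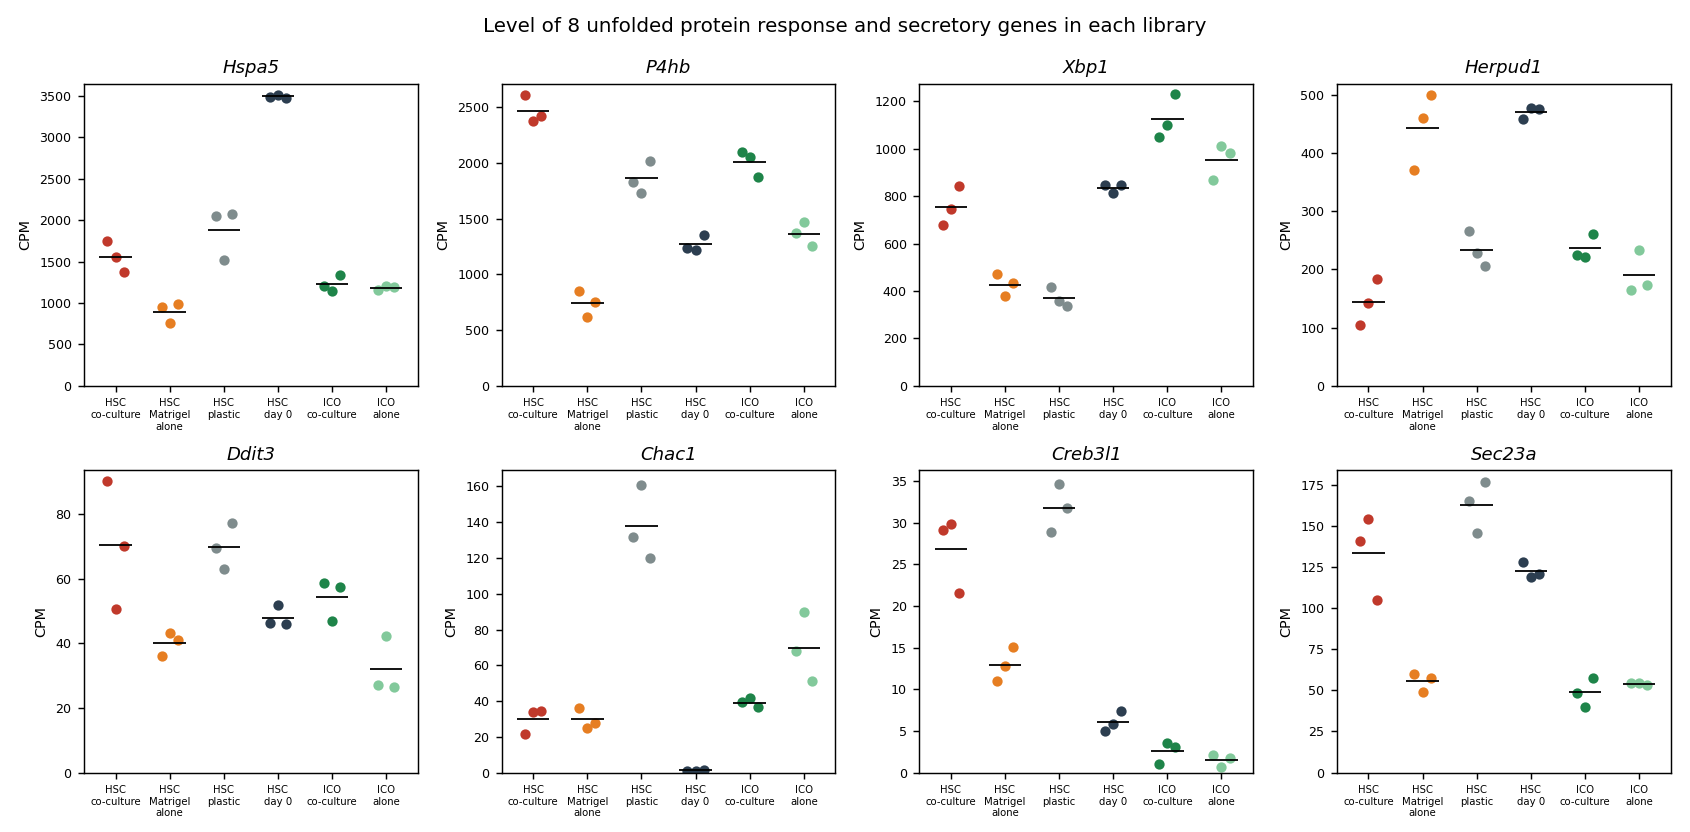
Level in CPM (linear axis from 0) of 8 genes in every library of the 6 groups; dots are libraries and lines are means of 3. Hspa5 lay between 757 and 987 CPM with HSC alone in Matrigel, between 1380 and 1750 CPM in co-cultured HSC and between 3480 and 3510 CPM at day 0, and Chac1 lay at 120 CPM or more on plastic and below 2 CPM at day 0.

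Culture on plastic was compared with day 0 to describe the ER genes as HSC activate in standard culture. Chaperone genes were mostly lower on plastic, the ATF4 targets Chac1 and Trib3 and the factor gene Creb3l1 were far higher, and Atf4, Atf6 and Ddit3 were higher by less than 1 on the log2 scale. In this comparison 27 of the 32 genes were called at an adjusted p under 0.05 by edgeR's quasi-likelihood test, 10 higher and 17 lower, where 58% of all 17020 genes tested were called, 27.5% higher and 30.5% lower. The median log2 fold change was -0.40 over the 32 genes and -0.10 over all genes. With total-count scaling 24 genes were called, 12 higher and 12 lower; besides the chaperones named with their class, Pdia6 (-0.29, adjusted p = 0.142), Syvn1 (-0.35, 0.0723) and Mia3 (-0.06, 0.722) were lost and Ern1 (0.66, 0.00448) was added.

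Of 10 chaperones and co-chaperones, 7 were lower and none was higher on plastic; with total-count scaling 5 were lower and 1 higher, with Dnajb11 at 0.40 (adjusted p = 0.043), Hyou1 at -0.37 (0.0575) and Manf at -0.20 (0.148). Hspa5 (ENSMUSG00000026864) had 2050, 1520 and 2080 CPM on plastic, against 3490, 3510 and 3480 CPM at day 0, without overlap (log2 fold change -0.83 ± 0.17 SE, adjusted p = 0.000916). Dnajb9, which encodes the BiP co-chaperone ERdj4, had 123, 115 and 106 CPM on plastic, against 327, 339 and 330 CPM at day 0 (-1.47 ± 0.17, adjusted p = 5.26e-06). It was the largest decrease among chaperones. Sdf2l1, which encodes a partner of ER co-chaperones, fell by 1.15, Hsp90b1 by 1.13 and Dnajc3, another co-chaperone of BiP, by 1.07 on the log2 scale. The lectin chaperone genes Canx (-0.11 ± 0.13) and Calr (-0.29 ± 0.13) and the co-chaperone gene Dnajb11 (0.13 ± 0.16) did not pass the test.

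Folding enzymes divided on plastic. P4hb, which encodes protein disulfide isomerase and is at the same time the beta subunit of collagen prolyl 4-hydroxylase, had 1830, 1730 and 2020 CPM on plastic, against 1240, 1220 and 1350 CPM at day 0 (0.62 ± 0.15, adjusted p = 0.00245). The other 4 fell, and Creld2, an ER-stress-inducible gene, had 96, 97.3 and 92.6 CPM on plastic, against 176, 179 and 192 CPM at day 0 (-0.87 ± 0.11, adjusted p = 1.13e-05). Pdia4, Pdia3 and Pdia6 fell by 0.82, 0.75 and 0.56 on the log2 scale. P4hb thus moved apart from every other member of its class. In ER-associated degradation, Edem1, which encodes a lectin that selects misfolded glycoproteins, had 135, 106 and 129 CPM on plastic, against 85, 94.1 and 91.9 CPM at day 0 (0.51 ± 0.13, adjusted p = 0.00315). Herpud1, which encodes a membrane partner of the ubiquitin ligase Hrd1, had 266, 228 and 206 CPM on plastic, against 458, 477 and 476 CPM at day 0 (-0.94 ± 0.18, adjusted p = 0.000609). Sel1l and Syvn1, which encode the Hrd1 ligase complex itself, fell by 0.61 and 0.62. Derl3 was called lower, but it never exceeded 3.34 CPM in any library.

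Of 6 sensors and transcription factors, 4 were higher and only Xbp1 was lower on plastic. Xbp1 (all transcripts, without regard to splicing) had 415, 359 and 338 CPM on plastic, against 845, 815 and 848 CPM at day 0 (-1.11 ± 0.13, adjusted p = 1.03e-05). Creb3l1, which encodes OASIS, an ATF6-like factor known in mice for driving collagen genes in bone-forming cells, had 28.9, 34.6 and 31.8 CPM on plastic, against 4.94, 5.79 and 7.41 CPM at day 0 (2.45 ± 0.21, adjusted p = 4.37e-07). Atf4 had 225, 288 and 248 CPM on plastic, against 129, 137 and 148 CPM at day 0 (0.94 ± 0.12, adjusted p = 1.55e-05). All plastic libraries lay outside the day 0 range for these genes. Ddit3 (ENSMUSG00000025408), which encodes CHOP, had 69.6, 63 and 77.2 CPM on plastic, against 46.2, 51.9 and 45.9 CPM at day 0 (0.60 ± 0.18, adjusted p = 0.012). Atf6 rose by 0.62 ± 0.11, and Ern1, the IRE1 gene, had a log2 fold change of 0.39 ± 0.17 (adjusted p = 0.0729).

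The ATF4 targets changed most of all. Chac1 (ENSMUSG00000027313), which encodes an enzyme that degrades glutathione, had 132, 161 and 120 CPM on plastic, against 0.785, 1.16 and 1.65 CPM at day 0 (6.89 ± 0.29, adjusted p = 1.03e-09). Trib3, which encodes a pseudokinase that restrains ATF4 and CHOP, had 66.7, 63.8 and 64.8 CPM on plastic, against 2.35, 1.77 and 0.823 CPM at day 0 (5.37 ± 0.28, adjusted p = 5.01e-09). Among translocation and export genes, Sec61b, which encodes a subunit of the Sec61 channel, had 158, 181 and 185 CPM on plastic, against 96.7, 90.8 and 96.8 CPM at day 0 (0.95 ± 0.14, adjusted p = 8.03e-05). Sec23a rose by 0.47 ± 0.14. Mia3, which encodes the procollagen receptor TANGO1, had 103, 87.4 and 112 CPM on plastic, against 124, 153 and 122 CPM at day 0 (-0.34 ± 0.14, adjusted p = 0.0464).

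Of the 140 other ER genes listed in 6 pathway groups, 65 were higher and 25 lower on plastic (64.3% called, against 58% of all genes). Among 26 further genes of stress signalling and ATF4 targets 16 were higher and 6 lower. Asns, which encodes asparagine synthetase, had 455, 422 and 453 CPM on plastic, against 0, 0.817 and 0.343 CPM at day 0 (10.14 ± 0.43, adjusted p = 2.68e-09), and Phgdh, the first enzyme of serine synthesis, rose by 7.61 ± 0.63. Atf3, a stress-induced factor, had 51.2, 59.9 and 40.1 CPM on plastic, against 1290, 1350 and 1410 CPM at day 0 (-4.68 ± 0.38, adjusted p = 8.77e-07), and Creb3l3, a liver-enriched relative of ATF6, fell by 4.98. Of 26 translocon, glycosylation and signal peptidase genes 17 were higher and 1 lower, with Sec61g at 1.67 ± 0.28.

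All 16 hepatocyte and all 15 endothelial markers were lower on plastic than at day 0. The hepatocyte markers summed to 122, 149 and 115 CPM on plastic, with Cps1 at 0, against 21600, 21200 and 22300 CPM at day 0, and their part in the decrease of ER genes was not tested. Calls lost when 1 library was left out were those of Mia3 (4 of 6 libraries, with adjusted p up to 0.255 without plastic replicate 2), Pdia6 without plastic replicate 2 (adjusted p = 0.0561), Ddit3 without day 0 replicate 1 (0.0606) and Sec23a without day 0 replicate 2 (0.0568).

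HSC alone in Matrigel were then set against the same day 0 libraries, which both comparisons share. Chaperone and folding enzyme genes were lower in Matrigel, while Chac1, Trib3, Atf4 and Creb3l1 were higher. Calls were made for 28 of the 32 genes, 5 higher and 23 lower, where 40.8% of all genes were called, 19.3% higher and 21.5% lower. The median log2 fold change was -0.91 over the 32 genes and 0.09 over all genes. With total-count scaling 23 genes were called, 7 higher and 16 lower.

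All 10 chaperones and all 5 folding enzymes were lower in Matrigel than at day 0; with total-count scaling 8 and 4 were, without Calr (-0.20, adjusted p = 0.182), Dnajb11 (-0.28, 0.139) and P4hb (-0.18, 0.3). Hspa5 had 946, 757 and 987 CPM in Matrigel, against 3490, 3510 and 3480 CPM at day 0 (-1.96 ± 0.18, adjusted p = 1.5e-06), the largest decrease of the class. Dnajb9 fell by 1.86, Dnajc3 by 1.53, Hsp90b1 by 1.44 and Manf, which encodes a secreted partner of BiP, by 1.33. Pdia3 had 626, 559 and 632 CPM in Matrigel, against 1730, 1830 and 1710 CPM at day 0 (-1.53 ± 0.13, adjusted p = 6.09e-07). P4hb had 847, 621 and 754 CPM in Matrigel, against 1240, 1220 and 1350 CPM at day 0 (-0.77 ± 0.15, adjusted p = 0.000991). No library in Matrigel reached the day 0 range of these 3 genes. In ER-associated degradation Sel1l had 153, 149 and 185 CPM in Matrigel, against 298, 321 and 285 CPM at day 0 (-0.89 ± 0.14, adjusted p = 0.000227). Herpud1 had 370, 460 and 499 CPM in Matrigel, against 458, 477 and 476 CPM at day 0, an overlap (-0.08 ± 0.18, adjusted p = 0.759).

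Among the factors, Xbp1 had 470, 378 and 433 CPM in Matrigel, against 845, 815 and 848 CPM at day 0 (-0.96 ± 0.13, adjusted p = 8.43e-05). Creb3l1 had 11, 12.8 and 15.1 CPM in Matrigel, against 4.94, 5.79 and 7.41 CPM at day 0 (1.11 ± 0.21, adjusted p = 0.000874). Atf4 had 227, 201 and 220 CPM in Matrigel, against 129, 137 and 148 CPM at day 0 (0.65 ± 0.12, adjusted p = 0.000733). Ddit3 lay at 36, 43.2 and 41.1 CPM in Matrigel, just under the 45.9 to 51.9 CPM of day 0 (-0.25 ± 0.18, adjusted p = 0.292). Chac1 had 36.4, 25.1 and 27.6 CPM in Matrigel, against 0.785, 1.16 and 1.65 CPM at day 0 (4.61 ± 0.27, adjusted p = 3.25e-08), and Trib3 rose by 3.57 ± 0.27. Both lay above every day 0 library. Of the COPII genes, Sec24d had 57, 50.4 and 57.1 CPM in Matrigel, against 143, 139 and 138 CPM at day 0 (-1.34 ± 0.13, adjusted p = 3.1e-06), and Sec23a fell by 1.13.

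The 140 pathway genes had 19 higher and 66 lower (60.7% called, against 40.8% of all genes). Stress signalling and ATF4 targets were again an exception with 13 higher and 5 lower of 26, including Asns with 115, 81.6 and 70.9 CPM in Matrigel (7.76 ± 0.42, adjusted p = 3.25e-08). Of 27 export and retrieval genes 18 were lower and none higher. Of 15 genes of procollagen modification 8 were lower and 2 higher: P4ha1, which encodes a catalytic subunit of prolyl 4-hydroxylase, fell by 2.17 and Serpinh1, the collagen chaperone HSP47, by 1.76.

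Hepatocyte markers were lower in all 16 cases (313, 235 and 267 CPM in sum in Matrigel, against 21600, 21200 and 22300 CPM at day 0), endothelial markers in all 15, and 24 of 26 cholangiocyte markers were higher. The part of these cells in the ER gene levels was not tested, apart from the organoid share: after its subtraction 27 genes were called, 4 higher and 23 lower. With total-count scaling 7 calls were lost: those of Calr, Dnajb11 and P4hb, those of Sel1l (-0.30, adjusted p = 0.0599) and Syvn1 (-0.06, 0.765), and those of Atf6 and Edem1, whose direction turned (0.16 and 0.19 with total counts, -0.43 and -0.39 with TMM). Herpud1 (0.51, adjusted p = 0.0209) and Sec61b (0.40, adjusted p = 0.0295) were then called higher, and these 2 genes, Atf6 and Edem1 were still below the median of all genes at that scaling, 0.676. Leaving out 1 library ended the call of Edem1 (replicate 1 or 2 in Matrigel, 2 or 3 at day 0, adjusted p up to 0.0649), of Ern1, at 0.54 ± 0.18 otherwise (replicate 2 or 3 of either group, up to 0.111), and of Derl3 (replicate 2 in Matrigel, 1 or 2 at day 0, up to 0.0636).

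Matrigel and plastic were compared at the same age in culture. Chaperone, folding and COPII genes were lower in Matrigel, and Herpud1 was higher. In all, 22 of the 32 genes were called, 1 higher and 21 lower, where 55% of all genes were called, 29.9% higher and 25.2% lower. The median log2 fold change was -0.68 over the 32 genes and 0.14 over all genes. With total-count scaling 20 genes were called, 3 higher and 17 lower, with Ern1 (0.47, adjusted p = 0.0314) and Xbp1 (0.46, 0.00843) added to the higher ones. The libraries of both groups also entered the comparisons with day 0.

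Hspa5 had 946, 757 and 987 CPM in Matrigel, against 2050, 1520 and 2080 CPM on plastic (-1.13 ± 0.17, adjusted p = 0.000119), and 7 of 10 chaperones and all 5 folding enzymes were lower. With total-count scaling 4 chaperones and 4 folding enzymes were, without Calr (-0.17, adjusted p = 0.248), Dnajc3 (-0.15, 0.271), Hyou1 (-0.26, 0.181) and Pdia4 (-0.13, 0.423). P4hb had 847, 621 and 754 CPM in Matrigel, against 1830, 1730 and 2020 CPM on plastic (-1.39 ± 0.15, adjusted p = 6.3e-06). Edem1 had 66, 68 and 71.3 CPM in Matrigel, against 135, 106 and 129 CPM on plastic (-0.91 ± 0.13, adjusted p = 5.77e-05). For all of these, the libraries in Matrigel lay entirely below those on plastic. Herpud1 went the other way, with 370, 460 and 499 CPM in Matrigel, against 266, 228 and 206 CPM on plastic (0.87 ± 0.18, adjusted p = 0.00151).

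Creb3l1 (-1.35 ± 0.20), Atf6 (-1.04 ± 0.11) and Ddit3 (-0.86 ± 0.18, adjusted p = 0.00164) were the factors that fell. Xbp1 overlapped, with 470, 378 and 433 CPM in Matrigel, against 415, 359 and 338 CPM on plastic (0.15 ± 0.13, adjusted p = 0.368), and Atf4 did not pass the test (-0.29 ± 0.12, adjusted p = 0.0531). Chac1 had 36.4, 25.1 and 27.6 CPM in Matrigel, against 132, 161 and 120 CPM on plastic (-2.27 ± 0.21, adjusted p = 2.18e-06), and Trib3 fell by 1.8. Sec23a, the inner COPII coat subunit, had 59.8, 49.3 and 57.8 CPM in Matrigel, against 165, 146 and 177 CPM on plastic (-1.60 ± 0.15, adjusted p = 1.57e-06). Its partner Sec24d fell by 1.23 and Sec61b by 1.14. Mia3 did not differ beyond the spread (-0.01 ± 0.14, adjusted p = 0.987).

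The wider machinery showed the same direction, with 11 higher and 95 lower of 140 pathway genes (75.7% called, against 55% of all genes). Of 26 translocon, glycosylation and signal peptidase genes 25 were lower and none higher, and of 15 procollagen genes 12 were lower and 2 higher. P4ha3 fell by 4.23 and Fkbp10, a collagen-specific folding catalyst, by 2.27 on the log2 scale. Asns fell by 2.38. In the same libraries 26 of 26 cholangiocyte and 12 of 15 macrophage markers were higher in Matrigel, and the macrophage part was not tested. After subtraction of the organoid share 22 genes were called, 1 higher and 21 lower. Without replicate 2 in Matrigel the calls of Hyou1 (-0.57 ± 0.17 otherwise) and Pdia4 (-0.45 ± 0.13) were lost (adjusted p = 0.0561 and 0.0519).

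Co-cultured HSC were compared with HSC alone in the same gel. The libraries of HSC alone also held organoid RNA, and macrophage markers differed between the groups, so the contrast is not of organoid contact alone. In co-cultured HSC the folding and export genes were higher than in HSC alone in Matrigel, and Herpud1 was lower. A total of 21 of the 32 genes were called, 20 higher and 1 lower, where 31.1% of all genes were called, 17.3% higher and 13.8% lower. The median log2 fold change was 0.54 over the 32 genes and 0.03 over all genes. With total-count scaling 17 genes were called, 16 higher and 1 lower, without Atf4 (0.24, adjusted p = 0.124), Hyou1 (0.34, 0.12), Pdia3 (0.30, 0.0674) and Trib3 (0.55, 0.0785).

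Among chaperones 6 of 10 were higher (5 with total-count scaling, without Hyou1). Hspa5 had 1750, 1550 and 1380 CPM in co-cultured HSC, against 946, 757 and 987 CPM in HSC alone (0.85 ± 0.17, adjusted p = 0.00207), without overlap. Manf rose by 0.76 ± 0.12, Hsp90b1 by 0.67 ± 0.15, Dnajb11 by 0.65 ± 0.16, Calr by 0.55 ± 0.13 and Hyou1, which encodes the nucleotide exchange factor of BiP, by 0.50 ± 0.17 on the log2 scale. Dnajb9 (0.17 ± 0.16), Dnajc3 (0.02 ± 0.12), Sdf2l1 (-0.17 ± 0.13) and Canx (0.23 ± 0.13) did not pass the test.

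All 5 folding enzymes were higher in co-cultured HSC (4 with total-count scaling, without Pdia3). P4hb (ENSMUSG00000025130) had 2610, 2370 and 2420 CPM in co-cultured HSC, against 847, 621 and 754 CPM in HSC alone (1.79 ± 0.15, adjusted p = 1.6e-06), the largest increase of the 32. Pdia6 rose by 0.93 ± 0.16, Pdia4 by 0.85 ± 0.13, Creld2 by 0.52 ± 0.11 and Pdia3 by 0.46 ± 0.12. In ER-associated degradation, Edem1 had 148, 164 and 128 CPM in co-cultured HSC, against 66, 68 and 71.3 CPM in HSC alone (1.15 ± 0.13, adjusted p = 1.88e-05). Herpud1 (ENSMUSG00000031770) had 104, 143 and 183 CPM in co-cultured HSC, against 370, 460 and 499 CPM in HSC alone (-1.58 ± 0.19, adjusted p = 3.38e-05). The genes of the Hrd1 complex that Herpud1 serves, Sel1l (0.18 ± 0.14) and Syvn1 (0.23 ± 0.17), did not pass the test.

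Of the factors, Creb3l1 had 29.1, 29.8 and 21.6 CPM in co-cultured HSC, against 11, 12.8 and 15.1 CPM in HSC alone (1.09 ± 0.20, adjusted p = 0.00105). Xbp1 (ENSMUSG00000020484) had 679, 747 and 842 CPM in co-cultured HSC, against 470, 378 and 433 CPM in HSC alone (0.87 ± 0.13, adjusted p = 0.000285). Ddit3 had 90.4, 50.6 and 70.2 CPM in co-cultured HSC, against 36, 43.2 and 41.1 CPM in HSC alone (0.86 ± 0.19, adjusted p = 0.00328). None of the 3 genes overlapped between the groups. Atf4 had 262, 302 and 265 CPM in co-cultured HSC, against 227, 201 and 220 CPM in HSC alone (0.40 ± 0.12, adjusted p = 0.0199). Ern1 (0.33 ± 0.17) and Atf6 (0.28 ± 0.11) did not pass the test. Of the ATF4 targets, Trib3 had 27.4, 30.1 and 34.7 CPM in co-cultured HSC, against 24.1, 16.5 and 17.8 CPM in HSC alone (0.71 ± 0.22, adjusted p = 0.026), while Chac1 overlapped with 21.4, 33.9 and 34.7 CPM in co-cultured HSC, against 36.4, 25.1 and 27.6 CPM in HSC alone (0.07 ± 0.21, adjusted p = 0.836).

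The export genes moved together except for Mia3 (0.11 ± 0.14). Sec23a had 141, 154 and 105 CPM in co-cultured HSC, against 59.8, 49.3 and 57.8 CPM in HSC alone (1.31 ± 0.14, adjusted p = 1.84e-05). Sec24d rose by 1.10 ± 0.13 and Sec61b by 0.94 ± 0.15.

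Of the 140 pathway genes 84 were higher and 3 lower in co-cultured HSC (62.1% called, against 31.1% of all genes). The 3 lower ones were P3h2, the oxidase gene Ero1b (-0.63 ± 0.22) and the calcium-binding Sdf4 (-0.45 ± 0.14). Of the translocon and export lists 21 of 26 and 21 of 27 genes were higher and none lower. In procollagen modification 10 of 15 were higher and 1 lower: P4ha2 had 336, 257 and 307 CPM in co-cultured HSC, against 44.3, 26.7 and 19.6 CPM in HSC alone (3.37 ± 0.24, adjusted p = 6.46e-07), P4ha1 rose by 2.32 ± 0.14, and P3h2, a prolyl 3-hydroxylase gene, fell by 1.61. Both P4ha chains pair with the P4hb product. Ero1a, the oxidase that recharges protein disulfide isomerase, rose by 2.53 ± 0.25, Pdia5 by 2.51 ± 0.20 and the retrieval receptor gene Kdelr3 by 2.31 ± 0.16. In stress signalling 9 of 26 genes were higher and none lower, among them Stc2 (3.48 ± 0.66) and Vldlr (3.53 ± 0.64). The part of organoid RNA, present in both groups, in these pathway genes was not tested. The collagen genes themselves, Col1a1 and Col3a1, had 2530, 4330 and 2630 CPM and 8350, 15900 and 8240 CPM in co-cultured HSC, against 133, 90.3 and 137 CPM and 614, 588 and 750 CPM in HSC alone.

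The organoid share overlapped between the 2 groups (28.6%, 14.9% and 42% in co-cultured HSC, against 32.5%, 13% and 3.84% in HSC alone). Only 1 of 26 cholangiocyte markers was called, but 23 had a positive and 3 a negative log2 fold change. Their median was 0.97, against 0.03 over all genes, so these markers tended to be higher in co-cultured HSC. After subtraction of that share all 21 calls held, and P4hb was at 2.17, Hspa5 at 1.07 and Herpud1 at -2.14; with the share as a covariate 20 held, all but Trib3 (adjusted p = 0.0754). With only the library of lowest share kept in each group, an alternative chosen after the data were seen, 18 held, without Atf4, Trib3 and Ddit3, the last at 0.32 (adjusted p = 0.25, with a range of 0.00026 to 0.25 over all alternatives). Macrophage markers were lower in co-cultured HSC in 12 of 15 cases (271, 308 and 414 CPM in sum, against 2690, 2710 and 3480 CPM in HSC alone), and their part was not tested. Much of that sum was Lyz2, with 97.5, 150 and 153 CPM in co-cultured HSC, against 1980, 2010 and 2770 CPM in HSC alone. Clec4f did not exceed 0.396 CPM in either group. With only the 6 libraries compared in the fit 14 genes were called, 13 higher and 1 lower, without Calr, Dnajb11, Hsp90b1, Creld2, Pdia3, Hyou1 and Atf4. Without replicate 2 of HSC alone the calls of Trib3 (adjusted p = 0.11), Hyou1 (0.152) and Atf4 (0.0808) were lost, without co-culture replicate 2 those of Hyou1 (0.184) and Atf4 (0.0661), and that of Trib3 also without replicate 3 of HSC alone (0.0741) or of the co-culture (0.0833); over all alternatives the adjusted p ran from 0.00461 to 0.11 for Trib3, from 0.00308 to 0.185 for Hyou1 and from 0.00614 to 0.149 for Atf4.

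**Figure D3:**
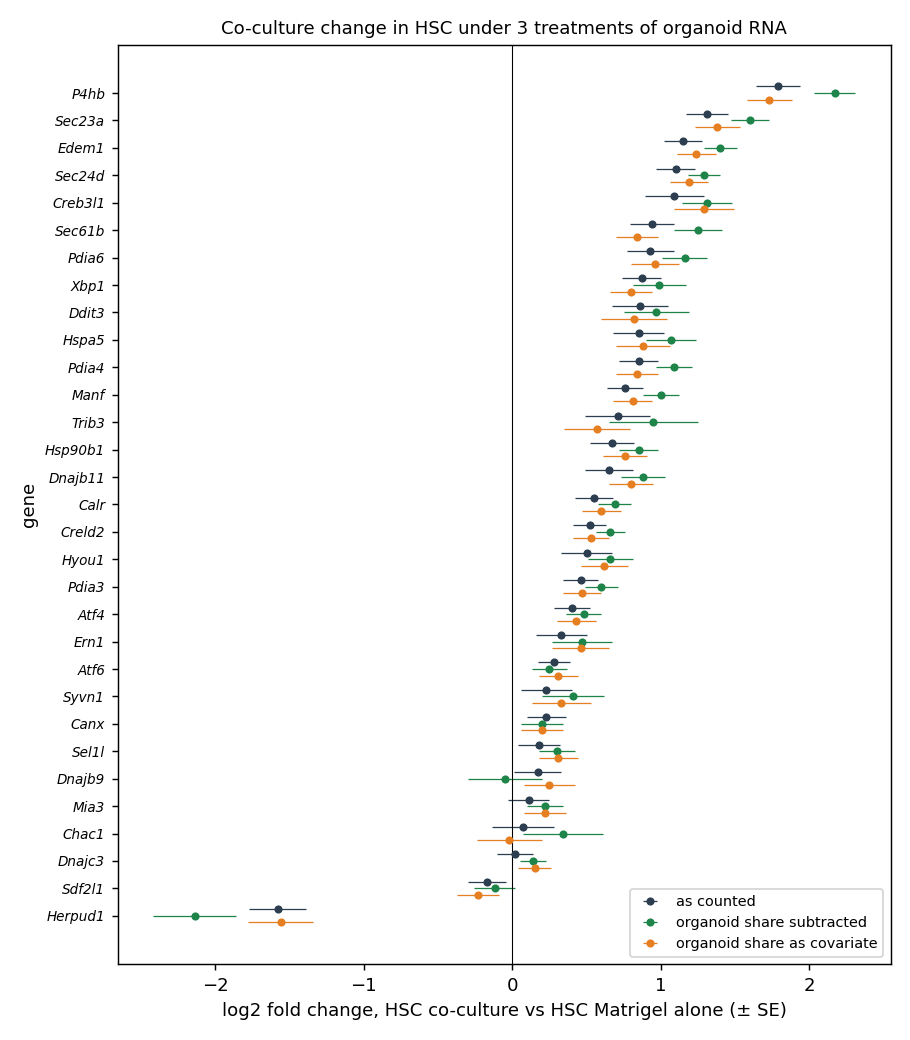
Log2 fold change (± SE) of 31 genes in co-cultured HSC against HSC alone in Matrigel, as counted, after subtraction of the organoid share and with that share as a covariate; Derl3, under 1 CPM in these libraries, is left out. P4hb and Sec23a stay above 1.3 and Herpud1 below -1.5 in all 3 treatments.

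Co-cultured HSC were also set against HSC on plastic, the standard activating culture, with both groups shared with comparisons above. Xbp1 was higher and Chac1, Trib3, Atf6, Canx and Herpud1 lower in co-cultured HSC, while Hspa5 overlapped. P4hb was also called higher, but that call rested on the setting, as given below. Of the 32 genes 11 were called, 4 higher and 7 lower, a smaller share than the 42.5% of all genes called (22.9% higher and 19.6% lower), and the median log2 fold change was -0.11 over the 32 genes and 0.08 over all genes. With total-count scaling 11 were called, 6 higher and 5 lower, without Dnajc3 (-0.29, adjusted p = 0.0551) and Pdia3 (-0.16, 0.279) and with Hsp90b1 (0.52, 0.0133) and Edem1 (0.40, 0.0252) added. After subtraction of the organoid share, which was at most 0.111% on plastic, the split turned: 13 were called, 8 higher and 5 lower, 9 of them among the 11, without Dnajc3 (-0.15, 0.187) and Pdia3 (-0.28, 0.0737). With the share as covariate 5 were called, 1 higher and 4 lower, and Herpud1 was not among them (-0.67, adjusted p = 0.127). Hspa5 overlapped with 1750, 1550 and 1380 CPM in co-cultured HSC, against 2050, 1520 and 2080 CPM on plastic (-0.28 ± 0.17, adjusted p = 0.207), as did Creb3l1 (-0.26 ± 0.20), Atf4 (0.11 ± 0.12) and Ddit3 (0.00 ± 0.18).

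The largest called differences were those of Xbp1 and the ATF4 targets. Xbp1 had 679, 747 and 842 CPM in co-cultured HSC, against 415, 359 and 338 CPM on plastic (1.02 ± 0.13, adjusted p = 6.95e-05). Of the co-culture values, 323, 168 and 475 CPM equal the organoid share times the mean of co-cultured ICO. Taking them off left 356, 579 and 366 CPM, not rescaled to the remaining counts, which overlaps plastic. In the fits with the share subtracted or as covariate, Xbp1 was still called higher. Chac1 had 21.4, 33.9 and 34.7 CPM in co-cultured HSC, against 132, 161 and 120 CPM on plastic (-2.20 ± 0.21, adjusted p = 5.83e-06), and Trib3 fell by 1.09. Atf6 had 46.1, 47 and 44.5 CPM in co-cultured HSC, against 76.5, 77 and 77.5 CPM on plastic (-0.76 ± 0.11, adjusted p = 0.000155). In each case the groups lay apart as counted. Canx, which encodes the lectin chaperone calnexin, had 462, 562 and 607 CPM in co-cultured HSC, against 798, 892 and 764 CPM on plastic (-0.60 ± 0.13, adjusted p = 0.00202). Herpud1 had 104, 143 and 183 CPM in co-cultured HSC, against 266, 228 and 206 CPM on plastic (-0.72 ± 0.18, adjusted p = 0.00692). Herpud1 was thus lowest in co-cultured HSC among the HSC groups. P4hb had 2610, 2370 and 2420 CPM in co-cultured HSC, against 1830, 1730 and 2020 CPM on plastic, and Pdia4 had 451, 453 and 404 CPM, against 344, 288 and 352 CPM (0.40 ± 0.15 and 0.40 ± 0.13, adjusted p = 0.0418 and 0.0244). Pdia3 had 739, 862 and 819 CPM, against 1040, 941 and 1010 CPM on plastic (-0.32 ± 0.12, adjusted p = 0.0491).

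Of the 140 pathway genes 25 were higher and 34 lower than on plastic (42.1% called, close to the 42.5% of all genes). The higher ones included Stc2 (4 ± 0.68), P4ha2 (2.12 ± 0.23) and Ero1a (1.67 ± 0.24), and the lower ones P3h2 (-2.99 ± 0.18) and Psat1 (-1.68 ± 0.43), an enzyme gene of serine synthesis. Stc2, P4ha2 and Ero1a averaged 15.8, 360 and 834 CPM in co-cultured ICO, against 19.8, 300 and 481 CPM in co-cultured HSC. Organoid RNA therefore enters these values, and its part in the pathway genes was not tested. All 26 cholangiocyte markers were higher in co-cultured HSC. The calls of P4hb, Pdia3, Ern1 and Pdia4 rested on the setting: 7 of 18 alternatives called P4hb (adjusted p from 0.00875 to 0.394), 5 Pdia3 (0.000189 to 0.289), 8 Ern1 (0.00805 to 0.191) and 12 Pdia4 (0.00488 to 0.193). Leaving out any 1 of the 6 libraries ended the call of P4hb, replicate 1 or 3 of either group that of Pdia3, replicate 1 or 2 of either group those of Ern1 and Pdia4, and co-culture replicate 3 also that of Ern1. Without co-culture replicate 1 a total of 7 genes were called, 1 higher and 6 lower.

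**Figure D4:**
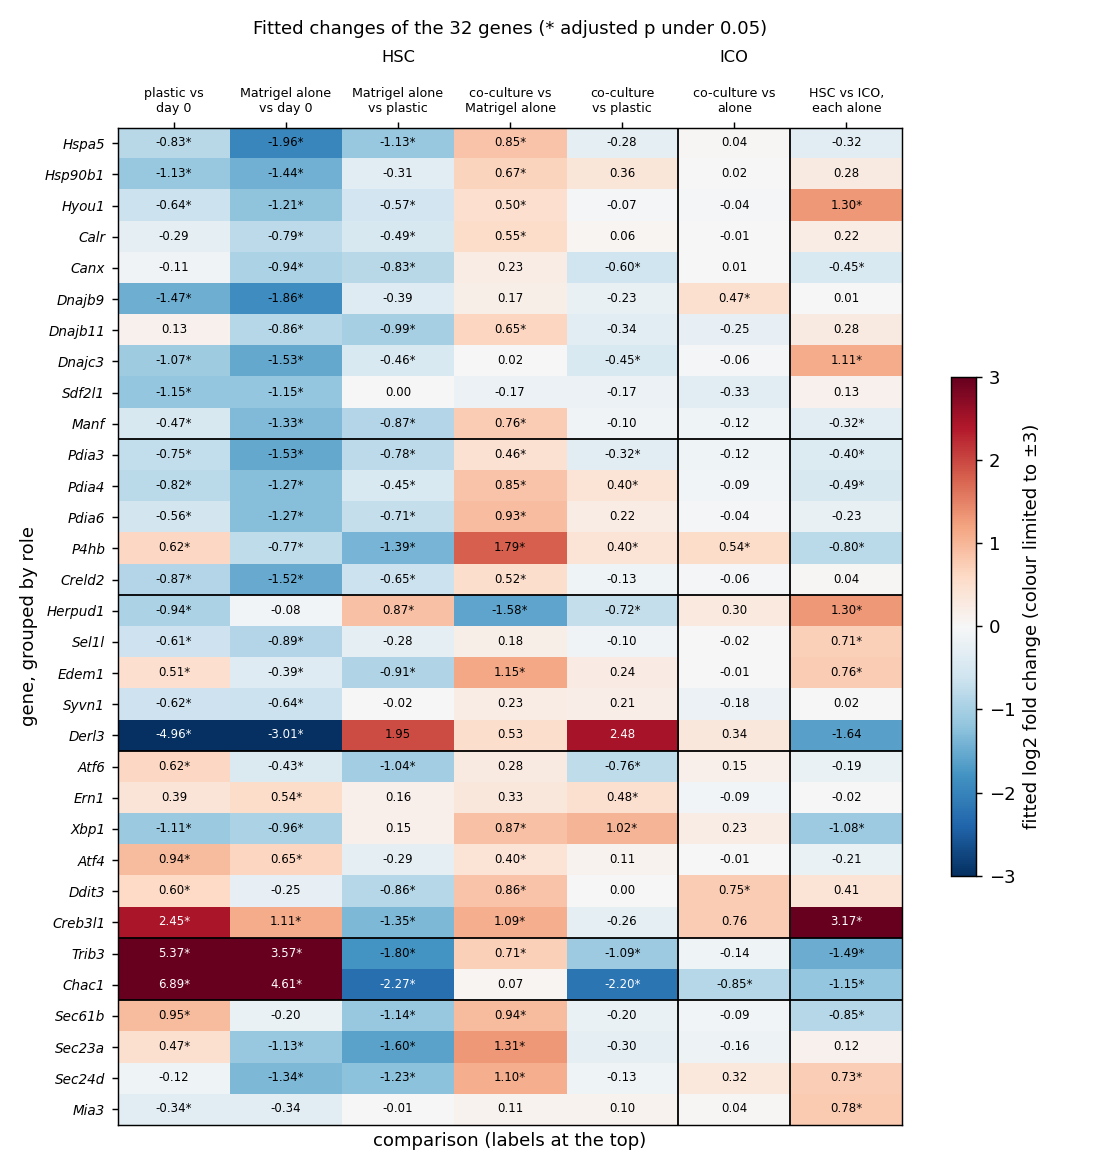
Fitted log2 fold changes of the 32 genes, in rows grouped by role, in 5 HSC comparisons, in ICO co-culture against ICO alone and in HSC against ICO, each alone; asterisks mark an adjusted p under 0.05 and colour is limited to changes of 3. The column of co-cultured HSC against HSC alone in Matrigel is mostly positive and that of HSC alone in Matrigel against day 0 mostly negative, while the ICO column is near 0 with 4 asterisks.

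In the organoids, co-culture with HSC went with higher P4hb, Ddit3 and Dnajb9 and lower Chac1. Of the 32 genes these 4 were called, 3 higher and 1 lower, a share below the 16.6% of all 13726 genes called (8.59% higher and 7.96% lower), and the median log2 fold change was -0.01 over the 32 genes and 0.00 over all genes. P4hb had 2100, 2050 and 1870 CPM in co-cultured ICO, against 1370, 1470 and 1250 CPM in ICO alone (0.54 ± 0.11, adjusted p = 0.00236). Ddit3 had 58.7, 46.8 and 57.4 CPM in co-cultured ICO, against 27.1, 42.4 and 26.4 CPM in ICO alone (0.75 ± 0.16, adjusted p = 0.00329). Both groups lay apart for these genes. Dnajb9 had 127, 143 and 131 CPM in co-cultured ICO, against 83.7, 107 and 95.5 CPM in ICO alone (0.47 ± 0.10, adjusted p = 0.0029), and Chac1 had 39.2, 41.5 and 36.6 CPM, against 67.8, 90 and 51.5 CPM (-0.85 ± 0.15, adjusted p = 0.00125). Hspa5 had 1200, 1140 and 1340 CPM in co-cultured ICO, against 1160, 1200 and 1190 CPM in ICO alone (0.04 ± 0.10, adjusted p = 0.853), and Xbp1 1050, 1100 and 1230 CPM, against 870, 1010 and 982 CPM (0.23 ± 0.11, adjusted p = 0.16). Atf4 (-0.01 ± 0.10) and Creb3l1 (0.76 ± 0.50, at most 3.59 CPM) did not pass the test.

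Of 138 pathway genes tested in ICO 15 were higher and 15 lower (21.7% called, against 16.6% of all genes). Of 14 procollagen genes 4 were higher and 1 lower: P4ha2 (1.29 ± 0.09), P4ha1 (0.81 ± 0.09), Plod3 (0.44 ± 0.10) and Plod2 (0.40 ± 0.11) rose, and P4ha3, at 0.286, 0.0691 and 0 CPM in co-cultured ICO, against 0.926, 0.701 and 1.01 CPM in ICO alone, was called lower. Of the oxidase genes, Ero1a rose by 1.13 ± 0.11 and Ero1b was at -0.16 ± 0.18 (adjusted p = 0.619). Among stress signalling and ATF4 targets 4 were higher and 9 lower of 25, with Nupr1 at 0.64 ± 0.11, Phgdh at -1.10 ± 0.12 and Slc7a11, a cystine transporter gene, at -1.04 ± 0.15. With total-count scaling 6 of the 32 genes were called, 3 higher and 3 lower, the added ones being Dnajb11 and Sdf2l1. Hepatocyte markers summed to 590, 616 and 592 CPM in co-cultured ICO, against 163, 177 and 191 CPM in ICO alone. Most of that sum was Ass1, with 464, 487 and 409 CPM in co-cultured ICO, against 119, 112 and 118 CPM in ICO alone; Alb lay at or below 2.85 CPM in both groups and Apoa2, Cps1, Tat and Ahsg were at 0 in both.

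HSC and ICO, each alone in Matrigel, were compared to see how the cell types differ in these genes. Differences ran both ways. Of the 32 genes 17 were called, 8 higher and 9 lower in HSC, where 56.7% of all 16233 genes were called (30.9% higher and 25.8% lower), so the share was close to the background; the median log2 fold change was 0.01 over the 32 genes and 0.09 over all genes. Creb3l1 had 11, 12.8 and 15.1 CPM in HSC, against 2.07, 0.701 and 1.76 CPM in ICO (3.17 ± 0.43, adjusted p = 5.59e-05). Herpud1 had 370, 460 and 499 CPM in HSC, against 165, 233 and 173 CPM in ICO (1.30 ± 0.19, adjusted p = 0.000116), and Hyou1 had 77, 61.6 and 82.3 CPM, against 31.5, 29.8 and 33.1 CPM (1.30 ± 0.17, adjusted p = 3.73e-05). These 3 genes did not overlap between the cell types. Mia3 had 96.7, 98.8 and 117 CPM in HSC, against 67.1, 61.8 and 64 CPM in ICO (0.78 ± 0.11, adjusted p = 8.63e-05). Dnajc3, Edem1, Sec24d and Sel1l were also higher in HSC, by between 0.71 and 1.11.

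Xbp1 was lower in HSC, with 470, 378 and 433 CPM, against 870, 1010 and 982 CPM in ICO (-1.08 ± 0.13, adjusted p = 1.68e-05). Trib3 had 24.1, 16.5 and 17.8 CPM in HSC, against 51.9, 70 and 51.8 CPM in ICO (-1.49 ± 0.16, adjusted p = 8.04e-06), and Chac1 fell by 1.15. P4hb (-0.80 ± 0.14), Sec61b (-0.85 ± 0.14), Canx (-0.45 ± 0.11), Pdia4 (-0.49 ± 0.12), Pdia3 (-0.40 ± 0.11) and Manf (-0.32 ± 0.11) were lower in HSC. Hspa5, with 946, 757 and 987 CPM in HSC, against 1160, 1200 and 1190 CPM in ICO, missed the threshold (-0.32 ± 0.14, adjusted p = 0.0669). Of 140 pathway genes 41 were higher and 44 lower in HSC (60.7% called, close to the 56.7% of all genes). Of 15 procollagen genes 10 were higher, among them P3h3 (4.32 ± 0.29) and Fkbp10, which had 64.5, 60.3 and 80.2 CPM in HSC, against at most 0.252 CPM in ICO. The organoid share of HSC libraries (32.5%, 13% and 3.84%) enters these values, and after its subtraction 20 genes were called, 8 higher and 12 lower. Manf missed the threshold once replicate 2 of HSC (adjusted p = 0.118) or replicate 1 or 2 of ICO (0.0556 and 0.0611) was left out.

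The effect of co-culture was finally compared between the cell types, as the log2 fold change in HSC minus that in ICO. Co-cultured libraries of HSC and ICO, which carry matching codes, were treated as independent. Of the 32 genes 11 differed, 10 with a larger effect in HSC and 1 with a smaller one, where 17.2% of all genes differed, 9.08% larger and 8.08% smaller in HSC. The median difference was 0.47 over the 32 genes and 0.01 over all genes. It concerned 3 chaperones (Dnajb11, Manf and Hspa5), 3 folding enzymes (P4hb, Pdia6 and Pdia4), Edem1, Herpud1, Trib3, and the channel and coat genes Sec61b and Sec23a. Sec23a differed by 1.38 ± 0.22 (adjusted p = 0.00127): its change was 1.31 ± 0.14 in HSC and -0.16 ± 0.12 in ICO. P4hb, which rose in both cell types, differed by 1.15 ± 0.20 (adjusted p = 0.00183), and Herpud1 by -1.98 ± 0.27 (adjusted p = 0.000447). None of the 6 sensors and transcription factors was called: Ddit3, called in both cell types, differed by 0.01 ± 0.32, and Xbp1 by 0.55 ± 0.18 (adjusted p = 0.0523). The call of Trib3 was lost in 12 of 22 alternatives (adjusted p from 0.00644 to 0.096) and that of Hspa5 in 6 of 22 (0.00539 to 0.0817). For Trib3 these included leaving out replicate 2 or 3 of HSC alone, of co-cultured HSC or of ICO alone, or any 1 co-cultured ICO library, and for Hspa5 replicate 2 of HSC alone, replicate 1 or 2 of co-cultured ICO or any 1 ICO alone library. Of the 140 pathway genes 41 had a larger and 2 a smaller effect in HSC.

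**Figure D5:**
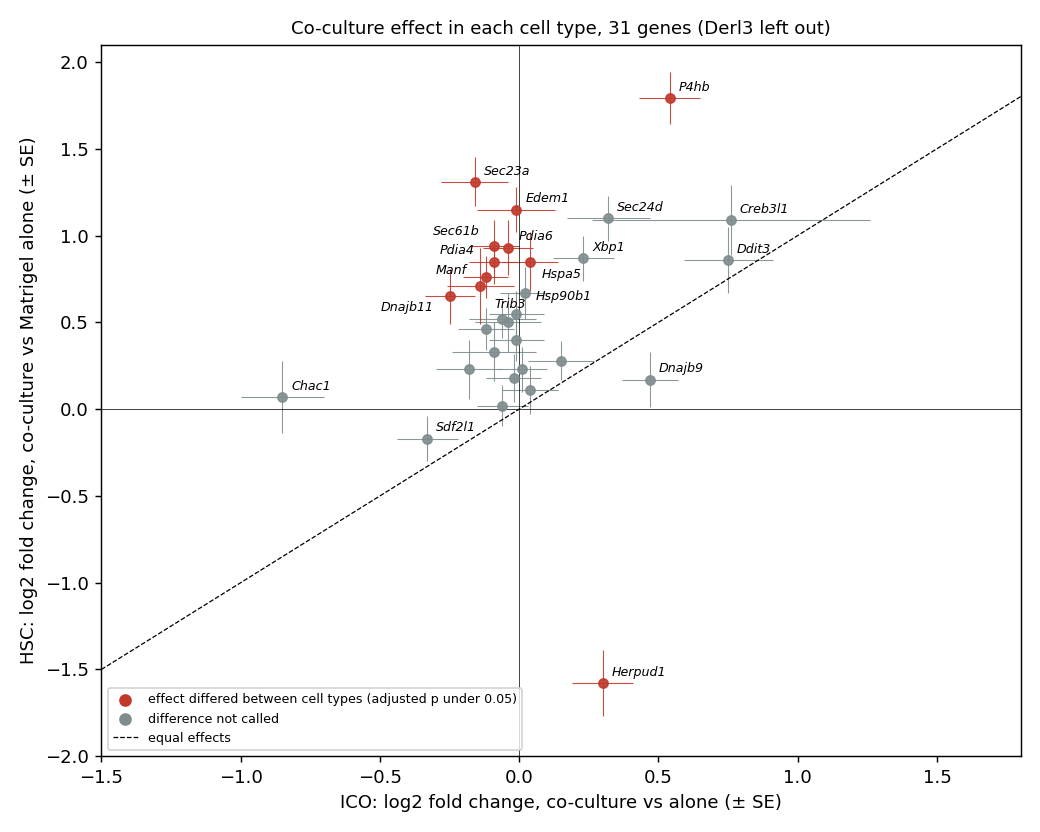
Co-culture effect in ICO (x axis) and in HSC (y axis) for 31 genes, as log2 fold change ± SE; the dashed line marks equal effects and red dots the 11 genes whose effects differed. Red dots lie above the line except Herpud1, at -1.58 in HSC and 0.30 in ICO.

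Against the promoter elements shown above, the 9 genes with an exact ERSE had 7 lower and none higher on plastic against day 0, 9 lower in Matrigel alone against day 0, and 5 higher and none lower in co-cultured HSC against HSC alone. The 19 genes with a promoter window but no such copy had 8 lower and 8 higher, 11 lower and 4 higher, and 1 lower and 12 higher in the same comparisons. Over all genes 30.5% were lower and 27.5% higher, 21.5% and 19.3%, and 13.8% and 17.3%. In HSC alone in Matrigel against plastic 6 of the 9 and 11 of the 19 were lower, where 25.2% of all genes were. The median log2 fold changes there were -0.49 with an ERSE and -0.78 without. With total-count scaling the ERSE genes Pdia6 and Syvn1 were no longer called on plastic against day 0, nor Calr and Syvn1 in Matrigel alone against day 0. Calr and Dnajc3 were then not called in Matrigel alone against plastic. Calls among the 19 genes without an ERSE changed as well, as given above. Derl3, counted among the 9, never exceeded 3.34 CPM. Whether the sets with and without an ERSE differ was not tested. The COPII genes with a UPRE, Sec23a and Sec24d, were higher in co-cultured HSC than in HSC alone in Matrigel, and lower in HSC alone in Matrigel than at day 0 and on plastic; neither was called in co-cultured HSC against plastic (-0.30 ± 0.14 and -0.13 ± 0.13). Herpud1, with an ERSE-II and an ATF4 element, followed neither Hspa5 nor Chac1 across the groups: its mean was 143 CPM in co-cultured HSC, 443 CPM in HSC alone in Matrigel, 234 CPM on plastic and 470 CPM at day 0.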

How the data were processed

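The authors deposited 1 table of estimated counts per gene for 18 mouse Smart-seq2 libraries. Kallisto 0.46.1, DESeq2 1.36.0 and build GRCm39 are named, per the submitters' processing notes, without their roles; annotation, filters and strand: not given in the sources used here. The counts were rounded to whole numbers here. Genes passing filterByExpr were fitted with edgeR 4.0.16 (R 4.3.3; TMM, robust quasi-likelihood) in fits of 12 HSC, 6 ICO or 12 Matrigel libraries, and p-values were Benjamini-Hochberg adjusted over all genes tested, with 0.05 as the threshold. Fold changes are log2, and SE is the log2 fold change divided by the square root of F. CPM used TMM over all 18 libraries. All 32 members passed the filter in every comparison, and the test was checked on simulated data. Ddit3 has a second row, at 0 in every library, which was not used, and Xbp1 splice forms are not separated.

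The members and lists were chosen with earlier results of these data known. Values per library are given, in each comparison, for the called member of each of 6 roles with the largest increase and decrease at 10 CPM or more, for Hspa5, Xbp1, Atf4, Ddit3, Creb3l1 and P4hb always, and for up to 2 genes per direction of each pathway list; other genes named were chosen after their values were seen. Alternatives were other scaling (RLE, and total counts, added after the data were seen), DESeq2 1.42.0, other filters, other sets of libraries, each library left out, the organoid share subtracted or as covariate, the libraries of high share left out (also added later), and the replicate number as a block. In their titles, libraries of co-cultured HSC and of co-cultured ICO carry matching codes. Whether these are sorted fractions of the same cultures is not said. Same-numbered libraries did not deviate together (correlations from -0.25 to 0.06, and from -0.01 to 0.04 between co-cultured HSC and ICO). Such correlations between different cell types cannot exclude pairing. The numbers were not taken as pairs in the main fits, which treat the libraries as independent. The number of reads limits low genes such as Derl3.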

Additional observations from a re-analysis of the deposited data

Results flagged for a closer look

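For 11 of the 32 genes the effect of co-culture differed between HSC and ICO by the interaction term of edgeR's quasi-likelihood test, each given as the log2 fold change in HSC minus that in ICO. Among chaperones and co-chaperones the difference was 0.81 ± 0.21 for Dnajb11 (adjusted p = 0.0177), 0.79 ± 0.16 for Manf (adjusted p = 0.00463) and 0.72 ± 0.20 for Hspa5 (adjusted p = 0.0252). Among folding enzymes it was 1.15 for P4hb, 0.88 for Pdia6 and 0.84 for Pdia4. Edem1 differed by 1.06 and Herpud1 by -1.98, so these degradation genes moved in opposite directions. Sec23a differed by 1.38, Sec61b by 0.94 and Trib3 by 0.75. Of these, P4hb was higher in co-culture in both cell types, and the other 10 were called in HSC only. The interaction term tests whether the changes differ between HSC and ICO, not whether a gene is called in only 1 of them. Xbp1 and Hsp90b1, for example, were called in HSC only without a called difference. Macrophage markers, lower in co-cultured HSC than in HSC alone, and cholangiocyte RNA, present in both groups of HSC, enter the HSC side of the difference. After subtraction of the organoid share 15 genes differed, 10 of them among the 11. The part of the macrophages was not tested.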

How the results depend on the processing

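The direction of every member called in a comparison held in all alternatives run, except that total-count scaling turned Atf6 to 0.16 (adjusted p = 0.211) and Edem1 to 0.19 (0.208) in HSC alone in Matrigel against day 0. There it also put 2 genes that TMM had not called at Herpud1 0.51 (0.0209) and Sec61b 0.40 (0.0295). Ddit3 was at -0.53 (adjusted p = 0.0195) in co-cultured HSC against plastic when only the library of lowest organoid share was kept, and at 0.00 with all libraries. In that comparison 11 genes were called; the count was 7 with no filter on low counts, 5 with the organoid share as covariate and 7 to 9 when 1 library was left out. The co-culture effects of HSC and ICO differed in 11 genes; the count was 18 in 1 fit of all 18 libraries, 17 without the libraries of highest share, 17 with only those of lowest share and 9 to 14 when 1 library was left out. The cause was not tested. Leaving out 1 library gave 25 to 27 of 27 calls on plastic and 25 to 28 of 28 in Matrigel alone, both against day 0, 20 to 25 of 22 in Matrigel alone against plastic, 18 to 21 of 21 in co-culture against Matrigel alone, 4 to 6 of 4 in ICO and 16 to 18 of 17 between cell types. With the replicate block the counts were 26, 28, 22, 20, 4 and 17 in that order, 8 in co-culture against plastic and 10 for the difference of effects. Whether libraries of the same number share a culture is not known, so a call lost there is not read as a weaker effect. DESeq2 called 28, 29, 25, 21, 5, 17, 11 and 13 in the same order. Depth limits Derl3, at no more than 3.34 CPM.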

Other observations

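Across the 6 group means, the genes outside the 32 whose log2(CPM + 1) was most like that of Hspa5 were Elk3 (Pearson r = 0.991), Oxnad1 (0.98), Dnaja1 (0.977), Rhoa (0.976) and Atp2c1 (0.964), among 6886 genes with at least 10 CPM in every group. The likeness rests on 6 means and is a description. Dnaja1, a cytosolic co-chaperone gene, averaged 338 CPM in co-cultured HSC, 205 CPM in HSC alone in Matrigel, 416 CPM on plastic and 809 CPM at day 0, and 289 CPM in co-cultured ICO and 339 CPM in ICO alone.

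The ATF4 target genes did not keep 1 order across the cultures. Asns had 219, 232 and 193 CPM in co-cultured HSC, 115, 81.6 and 70.9 CPM in HSC alone in Matrigel and 455, 422 and 453 CPM on plastic, and it had 150, 162 and 171 CPM in co-cultured ICO, against 254, 297 and 222 CPM in ICO alone. Atf3 had 268, 134 and 378 CPM in co-cultured HSC, 200, 125 and 101 CPM in HSC alone in Matrigel, 51.2, 59.9 and 40.1 CPM on plastic and 1290, 1350 and 1410 CPM at day 0. Asns was thus lowest, and Atf3 highest, in the freshly isolated cells among the HSC groups. Atf3 averaged 938 CPM in co-cultured ICO and 688 CPM in ICO alone. The estimated organoid share was 14.9% to 42% in co-cultured HSC and 3.84% to 32.5% in HSC alone in Matrigel. Organoid RNA therefore enters the Matrigel values of HSC for both genes, and its part was not tested.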
